A study of Bos taurus with 8 samples.

Results

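The matrix glycoproteins examined here are 10 genes whose products fibroblasts secrete into the extracellular matrix: THBS1, THBS2, FN1, SPARC, POSTN, DCN, LUM, BGN, TNC and FBN1. They were chosen by name, and a probe was assigned to a gene when the RefSeq accession on the array matched that gene in the table of the cattle genome. Of the 10 genes, 8 had at least 1 such probe, with 43 probes among them, out of 12603 genes and 26743 probes named in the same way. THBS2 and TNC were not analysed here. All 8 measured genes passed the filter on dim signals, but POSTN and FBN1 did so only through the SC arrays, where they are high, so that they had to differ.

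The samples were stem-like cells derived from bovine embryos (eSLCs) and somatic cells (SCs) of HanWoo, a Korean cattle breed. Their RNA was labelled with 1 dye and hybridized to 1 array per sample. The eSLCs grew out of blastocysts on mitomycin-C inactivated murine STO cells, a mouse embryonic fibroblast line, in a serum-free medium with the inhibitors PD184352 at 0.8 μM, SU5402 at 2 μM and CHIR99021 at 3 μM. Lines I2 (passage 35) and I9 (passage 30) came from in vitro produced (IVP) embryos, N2 (passage 36) and N7 (passage 30) from somatic cell nuclear transfer (NT) embryos, and P1 (passage 31) and P4 (passage 36) from parthenogenetic (PA) embryos. The SCs were grown in DMEM with serum and without inhibitors, and were taken at passage 5 (SC P5) and passage 10 (SC P10). Medium, feeder layer and passage therefore differ between eSLCs and SCs together with cell type, and cannot be told apart. Each line stands on a single array, the SC arrays are passages of cells whose independence the labels do not give, and p-values measure only the spread between these arrays. How feeder cells were kept out of the RNA is not given in the sources used here.

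A matrix of this kind is built in layers. FN1 (fibronectin) is the adhesive glycoprotein that integrins bind and assemble into fibrils. FBN1 (fibrillin-1) forms the microfibrils on which elastic fibres are laid down. DCN (decorin), LUM (lumican) and BGN (biglycan) are small leucine-rich proteoglycans that bind collagen fibrils. THBS1 (thrombospondin-1), SPARC (osteonectin) and POSTN (periostin) are matricellular proteins, which modulate how cells attach to and signal through the matrix rather than bear load. In the early embryo, fibronectin, laminins and SPARC also belong to the extraembryonic endoderm and its basement membrane.

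Signals are given as background-subtracted intensity divided by the 75th percentile of the array, which was set to 1000, and they are compared between arrays only within a probe. The scanner software called 71.2 to 76.7% of spots well above background. Values under a common floor of 13.3 have no order among themselves. Slide 1 carried both IVP lines with N7 and SC P5, and slide 2 carried both PA lines with N2 and SC P10. The labels were checked against marker genes. All 9 fibroblast markers outside the matrix that had a probe (VIM, S100A4, THY1, PDGFRA, PDGFRB, TWIST1, TWIST2, PRRX1 and FAP) were lower in eSLCs, with a summed signal of 2243 to 6065 in the lines and 439190 and 509040 in the SCs. Of 9 trophectoderm markers, 8 were higher in eSLCs, and their summed signal was 418330 to 1069000 in the lines and 17539 and 17771 in the SCs. In the lines most of this sum came from KRT8, KRT18 and KRT19, which read 135060, 130600 and 82188 in N7. Of all 10950 genes tested, 15.7% were lower in eSLCs and 19.7% higher. CDX2 and ELF5, both from the trophectoderm list, were not well above background in either SC array. The part of cell type composition in the differences below was not tested, and in bulk RNA fewer cells of a type and less RNA per cell cannot be told apart.

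At the probes chosen for the genes, THBS1 had the widest range of all members among the lines, 5.49 on the log2 scale. Some probes not chosen ranged more widely, over 7.46, 7.06 and 6.02 for SPARC and 6.02 for THBS1. The signal of THBS1 at its chosen probe was 130830 in SC P5 and 186980 in SC P10. Among the lines it was 45.2 in I2, 1184 in I9, 2036 in N2, 216 in N7, 105 in P1 and 142 in P4. Every line lay below both SC arrays, and even N2, the highest, stood at 1.30% of the SC mean, followed by I9 at 0.757%. The difference of eSLCs from SCs was −9.20 ± 1.37 on the log2 scale (SE, n = 6 and 2 arrays; limma, adjusted p = 0.00296). Without SC P10 the adjusted p in limma was 0.0526 at a difference of −8.94. All 6 probes of THBS1 were lower in eSLCs when each was tested alone, by 3.33 to 9.60 on the log2 scale. N2 was the highest line at 4 of these 6 probes, while 1 probe gave a nearly flat 7.55 to 11.7% across all lines.

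FN1 was above its SC level in 1 line and below it in the other 5. Its signal was 39817 in SC P5 and 46751 in SC P10. Among the lines it was 7318 in I2, 18836 in I9, 18219 in N2, 64259 in N7, 11933 in P1 and 9319 in P4. N7 lay above both SC arrays, and the other 5 lines lay below both, so that the groups overlapped. The difference of eSLCs from SCs was −1.41 ± 0.56 and was not called (limma, adjusted p = 0.085; unadjusted p = 0.0458). Without N7 it was −1.72, with an adjusted p of 0.0262 in limma, and was called.

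The 13 probes of FN1, which share the transcript and are not replicates, agreed on N7 as the highest line, while the order of the other lines varied between probes. Between pairs of these probes the log2 signals of the 6 lines correlated with a median r of 0.986 (0.926 to 0.999), a description over 6 arrays that share their RNA. N7 was above both SC arrays at 13 of 13 probes, at 149 to 252% of the SC mean. In contrast, I9 stood at 26.0 to 43.7%, N2 at 24.5 to 46.7%, P1 at 15.4 to 33.2%, I2 at 12.3 to 19.2% and P4 at 8.50 to 21.6%. All 13 probes were well above background in every line, although at 1 of them the value of I2, 12.1, lay under the floor.

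**Figure D1:**
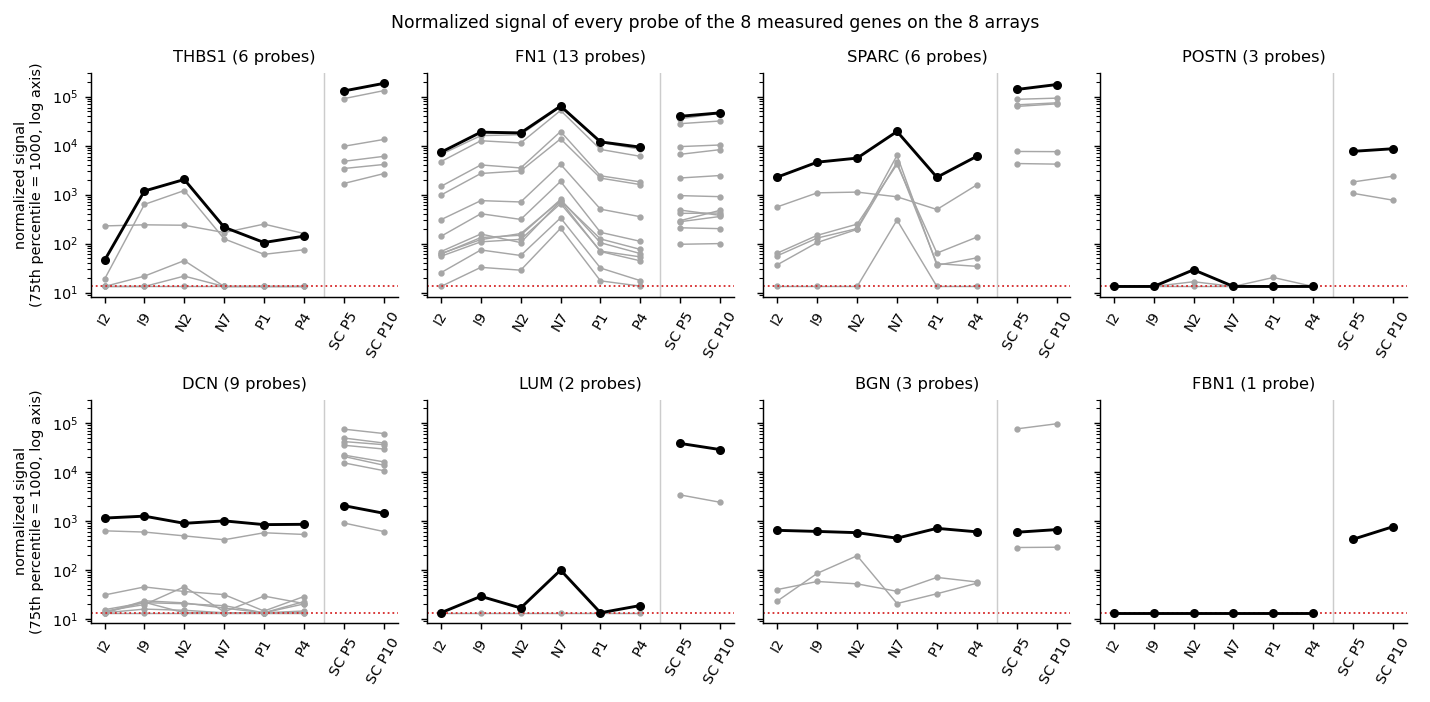
Normalized signal (log axis, the 75th percentile of each array at 1000) of every probe of the 8 measured genes on the 6 eSLC arrays and the 2 SC arrays, with the probe used for the gene in black, other probes in grey and the floor of 13.3 as a dotted red line. FN1 peaks in N7 at all 13 probes, 5 of 6 SPARC probes peak there too, and the probes of DCN and BGN differ widely in how far the lines lie below the SCs.

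SPARC was lower in every line than in either SC array. Its signal was 140300 in SC P5 and 176850 in SC P10. Among the lines it was 2282 in I2, 4598 in I9, 5567 in N2, 19470 in N7, 2258 in P1 and 6058 in P4. N7 was again the highest, at 12.4% of the SC mean, and the other lines stood at 1.43 to 3.85%. The difference of eSLCs from SCs was −4.98 ± 0.61 (limma, adjusted p = 0.00145), and all 6 probes were lower in eSLCs. The size depended on the probe, since 4 of the 6 gave −8.40 to −9.14 and 1 gave −2.26. At those 4 probes N7 held 3.99 to 6.96% of the SC mean and no other line more than 0.349%. At the probe with the smallest difference the highest line was P4, at 37.1%, and N7 stood at 21.2%.

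**Figure D2:**
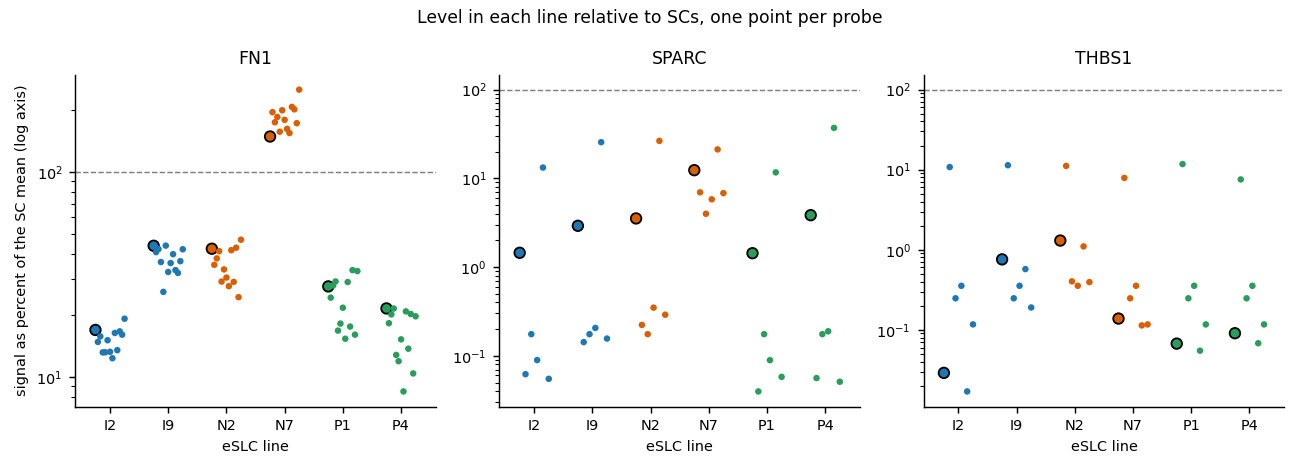
Signal of FN1, SPARC and THBS1 in each of the 6 eSLC lines as a percent of the SC mean (log axis, dashed line at 100%), with 1 point per probe, the probe used for the gene outlined in black, and colours for IVP (blue), NT (orange) and PA (green) origin. N7 lies above 100% for FN1 at all 13 probes and leads SPARC at 5 of 6, while THBS1 is highest in N2 and I9 at the outlined probe.

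POSTN was at background in most lines. Its signal was 7655 in SC P5 and 8647 in SC P10. Among the lines it was 29.1 in N2, the only line well above background at this probe, and −0.1 to 7.8 in the other 5. The difference of eSLCs from SCs was −9.07 ± 0.30 with values raised to the floor (limma, adjusted p = 1.11e-05). POSTN entered the test only through the SC arrays, so that this p-value gives no support of its own. All 3 probes were lower in eSLCs. At the probe used, POSTN was at least 905-fold lower in IVP-eSLCs than in SCs, and the bound for PA-eSLCs was at least 768-fold; in both, no array was well above background at that probe. Such a bound sets the SC mean against the lowest signals that the scanner software called well above background on the dim arrays. At another probe P1 was well above background with a signal of 20.3, and N2 with 16.6.

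Among the small leucine-rich proteoglycans, LUM was lower at both of its probes. Its signal was 38247 in SC P5 and 28636 in SC P10. Among the lines it was 4.2 in I2, 28.8 in I9, 16.6 in N2, 99.0 in N7, −2.5 in P1 and 18.7 in P4. I9, N2, N7 and P4 were well above background, and N7, the highest, stood at 0.299% of the SC mean. The difference of eSLCs from SCs was −10.48 ± 0.69 (limma, adjusted p = 0.000133).

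DCN and BGN gave different answers at different probes. By the rule used for all genes, a gene is represented by the probe whose log2 signals, averaged over the 8 arrays, are highest. For DCN this probe (A_73_111861) read 2052 in SC P5, 1433 in SC P10 and 839 to 1250 in the lines. The difference of eSLCs from SCs there was −0.80 ± 0.19, which passed the test but not the 2-fold limit (limma, adjusted p = 0.0158). Without SC P10 it was −1.06 and was called (limma, adjusted p = 0.0129). However, 7 of the 9 DCN probes were lower in eSLCs with log2 differences of −9.60 to −11.34. At the probe that reads highest in SCs (A_73_P099601) the signal was 74901 in SC P5 and 60936 in SC P10. In the lines it was 30.7 in I2, 44.8 in I9, 36.1 in N2, 31.2 in N7, 14.4 in P1 and 28.5 in P4. No line kept more than 0.0663% of the SC mean there. The remaining probe gave −0.48 ± 0.19 and was not called (limma, adjusted p = 0.0969). Across the 6 lines, the 4 DCN probes well above background in all of them did not share a pattern, with a median r of −0.05 between pairs.

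For BGN the probe chosen by the rule (A_73_P105226) read 587 in SC P5, 664 in SC P10 and 444 to 705 in the lines, and the difference was −0.08 ± 0.17 (limma, adjusted p = 0.722). A second probe (A_73_104688) read 75768 in SC P5 and 96384 in SC P10. In the lines it read 23.1 in I2, 85.0 in I9, 194 in N2, 20.5 in N7, 32.5 in P1 and 53.3 in P4. The difference there was −10.77 ± 0.94 (limma over all probes, adjusted p = 0.000571). The last probe gave −2.50 ± 0.23 (adjusted p = 0.000641 in the same limma fit). The level of DCN and BGN in eSLCs therefore cannot be stated without naming the probe, and which probe follows the transcript was not tested.

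FBN1 had a single probe. Its signal was 421 in SC P5 and 762 in SC P10, and −2.7 to 5.5 in the lines, none of which was well above background. Against SCs, FBN1 was at least 57.8-fold lower in eSLCs (limma with values at the floor, −5.42 ± 0.24, adjusted p = 2.91e-05). With all lines at the floor and FBN1 tested only through the SC arrays, this p-value adds nothing to the bound.

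In all, 5 of the 8 genes were called lower in eSLCs than in SCs and 0 higher, against 15.7% of all 10950 genes tested that were lower and 19.7% that were higher. The genes called were THBS1, SPARC, POSTN, LUM and FBN1, of which POSTN and FBN1 lay at the floor in 5 and 6 of the 6 lines. Both entered the test only through the SC arrays, so that the filter set their direction. A call means a Benjamini-Hochberg adjusted p under 0.05 in limma and a difference of at least 2-fold. The median difference of the 8 genes was −5.20 on the log2 scale, beside 0.23 over all genes tested. Of the 43 probes tested alone, 27 were lower and 0 higher, against 16.4% lower and 17.0% higher among all 34414 probes tested. By gene, these were 6 of 6 for THBS1, 0 of 13 for FN1, 6 of 6 for SPARC, 3 of 3 for POSTN, 7 of 9 for DCN, 2 of 2 for LUM, 2 of 3 for BGN and 1 of 1 for FBN1. For some of the lower probes, SC was the only condition with both arrays well above background. These were all probes of POSTN and FBN1 and part of those of THBS1, SPARC, DCN and LUM. They entered the test only through the SC arrays, so that the filter set their direction. The arrays of eSLCs and SCs did not overlap at 28 of the 43 probes, beside 24.9% of all probes with every eSLC array below both SC arrays. The 5 called genes were lower on both slides, with log2 differences of −4.57 (SPARC) to −10.15 (LUM) against SC P5 on slide 1 and −5.38 to −10.80 against SC P10 on slide 2. For FN1 the value was −0.94 on slide 1, which held N7, and −1.89 on slide 2.

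The same genes were then compared by embryo origin. Against SCs, 5 of 8 genes were lower in IVP-eSLCs (14.6% of all genes were), 5 of 8 in NT-eSLCs (14.0%) and 6 of 8 in PA-eSLCs (14.9%), with the same 5 genes in each and DCN added in PA-eSLCs by −1.02 ± 0.23 (limma, adjusted p = 0.0159). These comparisons share the SC arrays. POSTN and FBN1 entered all of them only through the SC arrays. By probe, 27 of 43 were lower in IVP-eSLCs (15.1% of all probes), 27 in NT-eSLCs (14.2%) and 30 in PA-eSLCs (15.7%). THBS1 differed from SCs by −9.40 ± 1.67 in IVP-eSLCs, −7.88 ± 1.67 in NT-eSLCs and −10.33 ± 1.67 in PA-eSLCs. SPARC differed by −5.60 ± 0.75, −3.92 ± 0.75 and −5.41 ± 0.75 in the same order, and FN1 by −1.88 ± 0.69, −0.33 ± 0.69 and −2.03 ± 0.69. The THBS1 and SPARC calls in NT-eSLCs rest on few arrays. Without SC P5 the adjusted p in limma was 0.107 for THBS1 and 0.0836 for SPARC, and without SC P10 it was 0.112 and 0.0911. Without N7 or without P4 it was 0.07 and 0.0533 for THBS1, and without N2 it was 0.05004 for SPARC. In the limma comparisons of IVP- and PA-eSLCs, THBS1 also missed the threshold without SC P5 (0.069 and 0.0548) or SC P10 (0.0756 and 0.0569). DCN in PA-eSLCs was no longer called without P1, P4 or SC P5 (log2 difference −1.01, −1.03 and −0.76). FN1 was called lower in limma once N2 or N7 was left out, in IVP-eSLCs with an adjusted p of 0.0479 and 0.0375 and in PA-eSLCs with 0.0366 and 0.0279.

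**Figure D3:**
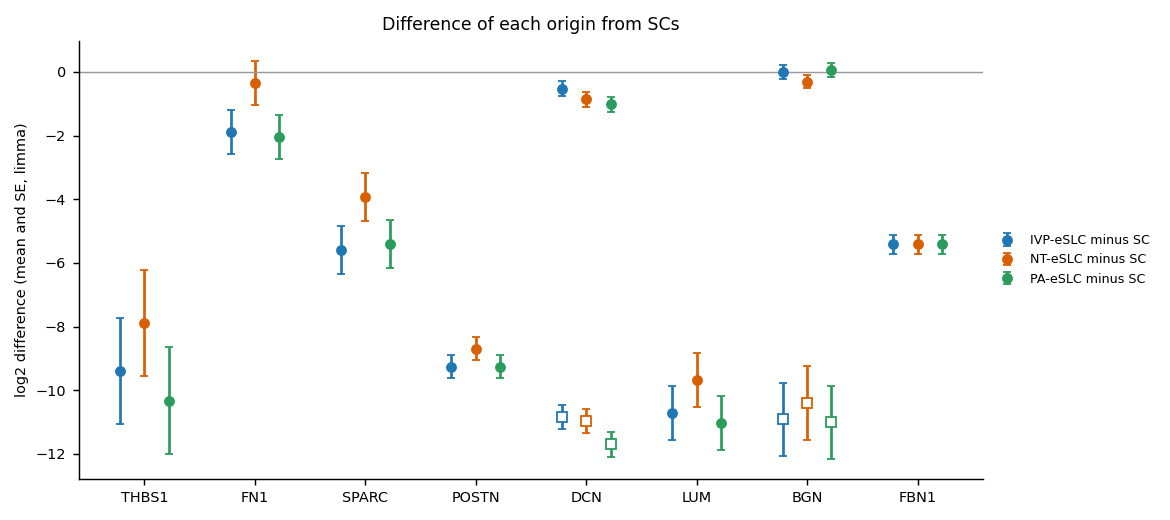
Log2 difference from SCs of IVP-, NT- and PA-eSLCs for the 8 measured genes, as the limma estimate with its SE (n = 2 arrays per condition). Filled circles are the probe used for the gene and open squares, for DCN and BGN, the probe with the highest mean linear signal, which lies near −11 for both where the circles lie near 0.

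No member was called between origins, nor was any of the 10950 genes (0.00% in each direction in each of the 3 limma comparisons). At an unadjusted p under 0.05 there were 0 members between NT- and IVP-eSLCs, 0 between PA- and IVP-eSLCs and 1, FN1, between PA- and NT-eSLCs. Over all genes these counts were 306, 568 and 1091. By the methods' t-test with a 2-fold limit, 0 members were called in each of the 3 comparisons. Over all 10950 genes, 17, 84 and 184 were called in the same order, too few to read the 0 as a result about the members. FN1 was lower in PA- than in NT-eSLCs by 1.70 (log2 difference −1.70 ± 0.69, limma, unadjusted p = 0.0491 and adjusted p = 0.502). SPARC was higher in NT- than in IVP-eSLCs by 1.68 ± 0.75 and was not called. With 2 lines per origin, a difference between origins cannot be told apart from one between single lines.

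In the line N7, several other genes stood apart together with FN1 and SPARC. Of the 7 basement membrane genes with a probe, 4 were highest in N7, namely LAMB1, LAMC1, NID1 and NID2, genes chosen for mention after their values were seen. How many of all genes were highest in N7 was not counted here, so that this count has no background beside it. NID1 (nidogen-1), which links laminin and collagen IV networks, read 1988 in N7 and 7.8 to 56.9 in the other lines, beside 3709 and 5168 in the SCs. NID2 (nidogen-2) read 6837 in N7 and 26.2 to 262 in the others. The laminin chain LAMC1 read 12705 in N7 and 2348 to 7725 in the others, and LAMB1 read 18982 against 5293 to 13008. LAMB3 was instead highest in N2, LAMB2 in P1 and LAMA4 in I9.

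Some markers of the hypoblast and endoderm, embryonic cells known for making basement membrane, were also high in N7. Their summed signal over 6 genes was 127240 in N7, 3512 to 8887 in the other lines, and 11991 and 10196 in the SCs. In N7 most of this sum came from APOA1 alone. GATA4, a transcription factor of this lineage, read 2918 in N7 and 23.1 to 180 in the other lines. HNF4A read 9022 in N7 and 8.2 to 23.4 in the others, and APOA1, an apolipoprotein, read 112600 against 1097 to 6823. SOX17 (2664 in N7, 1908 to 2946 in the others), AFP and TTR did not set N7 apart. The part of these markers and of their cells in the FN1 and SPARC values of N7 was not tested.

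**Figure D4:**
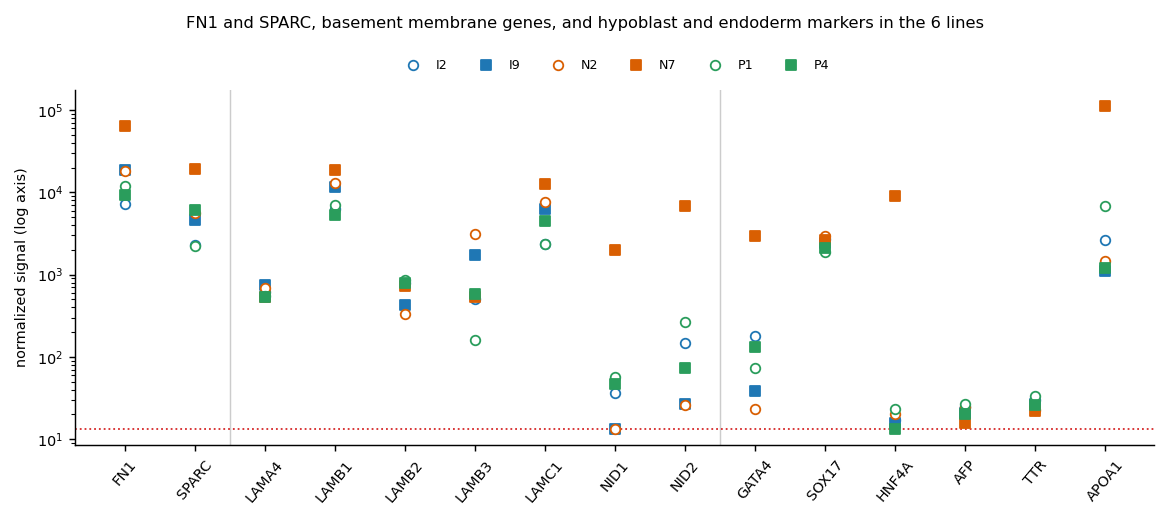
Normalized signal (log axis) of FN1 and SPARC, of the 7 basement membrane genes with a probe, and of 6 hypoblast and endoderm markers in the 6 eSLC lines, with open circles for I2, N2 and P1, filled squares for I9, N7 and P4, and the floor as a dotted line; levels are to be compared within a gene, not between genes. N7 (orange squares) is the highest line for FN1, SPARC, LAMB1, LAMC1, NID1, NID2, GATA4, HNF4A and APOA1.

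The lines with the highest THBS1 were others. Of the 5 smooth muscle markers, ACTA2, TAGLN and CNN1 were highest in N2, MYH11 in I9 and ACTG2 in I2. ACTG2 hardly varied between I2 (12874), N2 (12694) and P1 (12685). In I9, TAGLN (150) was below its value in N7 (218) and CNN1 (268) below its value in P1 (506). ACTA2 (smooth muscle actin) read 16040 in N2, 6717 in I9, 1970 in N7 and 471 to 822 in the other lines, beside 182020 and 246260 in the SCs. The summed signal of these 5 markers was 30583 in N2, 19789 in I9 and 8952 to 13870 in the other lines, beside 284150 and 391190 in the SCs. Their part in the THBS1 values was not tested. The 5 genes whose log2 signals were most like those of THBS1 over all 8 arrays were SLC20A2 (r = 0.995), FCGRT, CRIM1, CRTC1 and CD44 (r = 0.992). Over the 6 lines alone they were DCAF16 (r = 0.999), ITGA6, MFSD14A, ZNF740 and NEDD1. These correlations are descriptions over arrays that fall into 2 groups in the first case and over 6 points in the second. CD44, a receptor for hyaluronan, read 171 in I9 and 218 in N2 but 8.0 to 35.6 in the other lines. Among the members well above background in all lines, DCN had the narrowest range at its chosen probe. The genes most similar to that probe over 8 arrays were FOXP4 (r = 0.9803), CARMIL3, PKD2, TMEM225B and RNF10. Since the DCN probes differed, this holds for that probe only.

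To place the members among their partners, a wider list of 71 matrix genes was tested in the same fit, of which 58 had a probe and 57 were tested. In eSLCs against SCs, 42 of the 57 were lower, 1 was higher and 14 were not called, with a median difference of −4.31. Of all 10950 genes tested, 15.7% were lower and 19.7% higher, the shares to set beside the counts by role below. MFAP4, FBLN1, EFEMP1, OGN, ASPN, OMD, ECM2, VCAN, ACAN, TGFBI, TNN and CCN5 were well above background in no line or 1. They entered the test only through the SC arrays, so that the filter set their direction and their p-values are no support. Among microfibril and elastic fibre genes, the partners of FBN1, 12 of 13 were lower. The largest log2 differences were those of FBLN1 (fibulin-1) at −10.39 ± 0.77 and FBLN5 (fibulin-5) at −10.13 ± 0.15 (limma, adjusted p = 0.000202 and 2.85e-06). FBLN1 was well above background in 1 of 6 lines and FBLN5 in 5 of 6.

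Among the other proteoglycans, 8 of 11 were lower. ASPN (asporin), a close relative of DCN, read 22890 and 15312 in the SCs and was above background in no line, which put it at least 1911-fold lower (limma, adjusted p = 2.85e-06). FMOD (fibromodulin) fell by 8.72 ± 0.75 (limma, adjusted p = 0.000365). Among the other matricellular and adhesive genes, 12 of 17 were lower. CCN5, of the CCN family, read 32809 and 30523 in the SCs and was at least 3231-fold lower (limma, adjusted p = 2.43e-06), and SMOC1, a relative of SPARC, fell by 10.18 ± 0.19 (limma, adjusted p = 2.85e-06). COMP and DPT (dermatopontin) were well above background in all 6 lines at 69.3 to 143% and 66.6 to 83.1% of the SC mean, and neither was called.

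Of the basement membrane genes, 3 of 7 were lower, with a median difference of −2.02. NID1 was lower by 6.26 ± 1.75 and LAMB2 by 4.07 ± 0.37 (limma, adjusted p = 0.0295 and 0.000458). Tested alone, 3 of 5 probes of NID1, 3 of 3 of LAMB2 and 2 of 4 of LAMC1, also called, were lower. LAMA4 stood at 102.5 to 143% of the SC mean at its chosen probe, although 3 of its 4 tested probes were lower. Of the 9 enzymes and chaperones of matrix maturation, 7 were lower, with log2 differences of −8.78 ± 0.66 for LOX (lysyl oxidase, which crosslinks collagen and elastin) and −6.17 ± 0.69 for SERPINH1 (a collagen chaperone) (limma, adjusted p = 0.000218 and 0.000985). LOXL3 was kept at 55.7 to 138%. The only gene of the list called higher was TGM2 (transglutaminase 2, which crosslinks fibronectin among other proteins). It read 641 and 477 in the SCs and 7002 to 67846 in the lines, a rise of 5.44 ± 0.84 (limma, adjusted p = 0.00348), and both of its probes were higher in the lines.

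**Figure D5:**
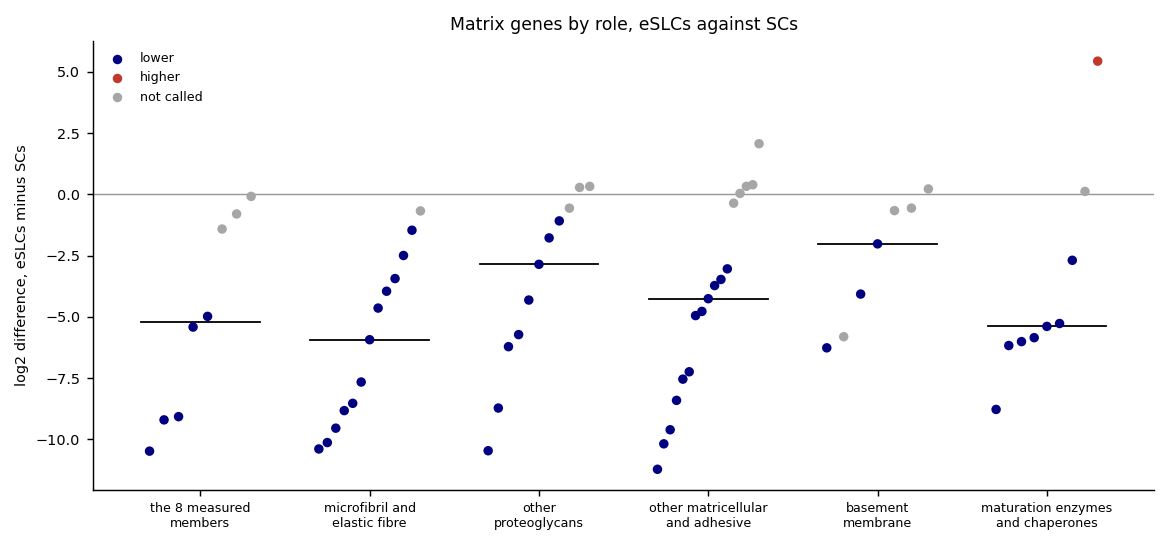
Log2 difference of eSLCs from SCs (limma) for the 8 measured members and for the 57 tested genes of the wider matrix list by role, with 1 point per gene, coloured by call, and the median of each group as a black line. Of the wider list, 42 points are lower and 1, TGM2 at 5.44, is higher, beside 15.7% lower and 19.7% higher among all genes tested.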

How the data were processed

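RNA of 8 samples was hybridized to 1-colour Agilent bovine arrays. The authors scanned them with Feature Extraction and deposited linear spot signal intensities with no normalization between arrays, and a table of intensities after GeneSpring normalization, whose scaling and centring are not given in the sources used here. Control and outlier spots (1 to 11 per array) were left out, which gave 43653 probes. The background-subtracted signal was divided by the array's 75th percentile (1192 to 4092 scanner units, or 75.3 to 136 times the dimmest spot called present), with 1000 as its new value. Values under 13.3 were set to that floor before log2 was taken. The processed signal was left aside, since in 6 of 8 files it ranked the probes differently (rank correlation 0.161 to 0.216).

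A gene (1 probe each, 10950 genes) or a probe (34414) entered the test when both arrays of some condition were well above background. The test was limma (version 3.58.1, under R version 4.3.3), with lmFit and eBayes on the 4 conditions and 8 arrays together. Benjamini-Hochberg adjustment and a 2-fold limit were applied. The fit was also run on simulated data with normal noise and no floor, which does not cover genes at the floor. Python version 3.11.15, pandas version 2.3.3, numpy version 2.4.6 and matplotlib version 3.10.9 were used. The number of arrays limits the precision. The members, the wider list and the marker lists were chosen with earlier results of these data known. Named are all members and the marker lists. From each role of the wider list, the 2 genes with the largest rise and fall among those called are named. Any gene of that list kept at 50% or more of the SC mean in all lines is named too. The 5 genes most like a member are given for the widest and narrowest range among members well above background in all lines. The endothelial and blood markers gave PTPRC and CD14 higher in eSLCs, KDR and TEK not called, and CDH5 well above background on no array. Each result was repeated with another scaling, background correction, floor, filter, probe rule, test, set of samples and source of values.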

Additional observations from a re-analysis of the deposited data

Results flagged for a closer look

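Among the 6 eSLC lines, the POSTN signal of N2 at the probe used stood apart from the others by Dixon's test, whose ratio of the gap to the whole range was 1, against a critical value of 0.625. N2 read 29.1, and the 5 other lines were at the floor of 13.3, so that the ratio reflects a single line above a common floor, 1.13 log2 units away. At another POSTN probe P1 was the highest line, with 20.3, and N2 read 16.6. In all, 7 such tests were made among the members, and chance flags about 1 in 20 groups.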

How the results depend on the processing

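The number of members called was within 1.5 times its value under all alternatives but the following. With genes kept only if well above background on all 8 arrays, 5 members were tested and 2 (SPARC and THBS1) were called in eSLCs, IVP-eSLCs and NT-eSLCs against SCs, where 33.9, 31.3 and 28.9% of all genes were called in either direction. The wider list then had 25 genes called. The other members left the test because they were dim in the lines. By the methods' t-test after Benjamini-Hochberg adjustment, 2 members were called in IVP-eSLCs (7.89% of all genes) and 0 in NT-eSLCs (2.71%). At an unadjusted p under 0.05, that test called 4 and 4 members, beside 3079 and 2554 of all 10950 genes. With the SC arrays as 1 sample, 3 were called in NT-eSLCs (16.5% of all genes). With the authors' normalized values, THBS1 was called higher in NT- than in IVP-eSLCs (1 member, beside 0.894% of all genes called). Its log2 difference there was 5.32 ± 0.66 (limma, adjusted p = 0.00564), beside 1.52 ± 1.67 in the fit used above. With the authors' SC columns as 1 sample, 26 genes of the wider list were called. Those SC columns differed by under 1% for 21.4% of all probes and 48.6% of the probes used for genes. Leaving out 1 array at a time gave 5 to 6 members in eSLCs, 4 to 6 in IVP-eSLCs, 3 to 5 in NT-eSLCs, 4 to 7 in PA-eSLCs, 0 to 0 between origins and 32 to 44 genes of the wider list.

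The probe rule changed the calls of DCN and BGN and of no other member. FN1 was called lower in PA-eSLCs under 7 of 24 alternatives, and the DCN call in PA-eSLCs was lost under 9. BGN changed sign in IVP-eSLCs (−4.50 with the mean of all probes, −10.91 at the probe with the highest mean linear signal) and in PA-eSLCs (−4.38 and −11.00). The number of member and line pairs at 10% or more of the SC mean, 19 at the chosen probes, was 6 and 7 under these rules. The linear-signal rule, normexp background correction on the median signals (the mean signals were not used here) and the SC columns as 1 sample were chosen after seeing the data. The processed signal was not run as an alternative. No paired analysis was possible because the labels give every sample the replicate number 1, and the numbers used here within a group only name the samples in order of listing, so that the groups compared share fewer than 2 numbers. Quantile normalization moved the median difference of all genes from 0.23 to 0.12 and changed no call of a member.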
